A study of Mus musculus with 7 samples.

Results

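The folding and quality-control machinery of the endoplasmic reticulum (ER) was read in mouse bone marrow through 34 genes. They are genes of ER chaperones and of the unfolded protein response, taken by symbol from a list of known pathway members. That list was chosen with earlier results of these data known. Each of the 34 symbols matched 1 row of the 49315 Ensembl genes in the count table, and all 34 passed the filter on low counts that left 17920 genes for testing. All 7 libraries were made from bone marrow RNA, and all the mice were fed chow and had undergone hindlimb ischemia, in which limb arteries are blocked by surgery. The 3 control libraries (flox) were labelled miR-181a2b2flox/flox, floxed alleles of a microRNA cluster, and their titles call them WT. The 4 knockout libraries (KO) were labelled miR-181a2b2-/-, which lack that cluster. The labels name no Cre driver, age, sex or ends of the deletion, and they do not say whether each library came from its own animal, so the p-values rest only on how these samples spread, and part of that spread may be technical.

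Proteins that enter the ER are folded by BiP (Hspa5) and its partners, by the lectin chaperones calnexin and calreticulin, and by protein disulfide isomerases. Proteins that fail to fold are returned to the cytosol and degraded, a route called ER-associated degradation. When unfolded proteins build up, the sensors IRE1 (Ern1), ATF6 and PERK (Eif2ak3) start the unfolded protein response, in which the transcription factors XBP1 and ATF6 raise chaperone genes and PERK slows translation. In marrow this machinery is known to be prominent in cells that make much secretory or granule protein, such as plasma cells and the precursors of neutrophils.

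Total counts ran from 43110251 to 51688514 per library. The hairpin genes of the deleted cluster, Mir181a-2 and Mir181b-2, had 0 counts in all 7 libraries. Mature microRNAs have no poly(A) tail and are not captured here, so the genotype could not be checked from them. White adipose tissue is the tissue named in the extraction protocol, whereas the source label is bone marrow. Erythroid transcripts were abundant, with 10 markers summing to 34077 to 71947 CPM (counts scaled to a common library size) across libraries. Genes of promyelocytes (neutrophil precursors) and their primary granules, called the primary granule list below, summed to 2845 to 6773 CPM. Markers of adipose tissue were not looked up, so these sums do not settle the difference between the labels. On the first principal component (34.7% of the variance) flox 1 stood apart at -58.7, and on the second (18.8%) flox 2 stood apart at -41.9 against -9.54 to 21.7 in the other libraries.

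Some of the promoters of these genes hold a sequence known from the ER stress response. The members were listed as known genes of that pathway, so the shares below are not independent of the list. The ER stress response element (ERSE) is known to bind NF-Y through its CCAAT part and ATF6 or XBP1 through its CCACG part. RefSeq promoter windows on GRCm38.p6, of 250 bases before and 50 bases after the annotated start, matched 28 of the 34 members, 2 of them under their newer symbols Ero1a (Ero1l) and Ero1b (Ero1lb). Hyou1, Hspa13, Manf, Derl1, Sec61a1 and Atf6 were not matched. On either strand, CCAAT followed after 9 bases by CCACG occurred in 10 of the 28 members (35.7%) and in 37 of the 27025 genes with a window (0.137%), the members included. The related ERSE-II, ATTGG and CCACG with 1 base between them, occurred in Dnajb11 and Herpud1 and in 12 genes in all (0.0444%). TGACGTG, the core of the XBP1-bound element (UPRE), occurred in Hspa5, Txndc5 and Sec24d, against 2.22% of all genes. TGACGTG can share letters with a reversed CCACG, but no matches overlapped in the members. A match describes letters in the window and not a bound site. The sequences shown are those of BiP, of 3 other folding genes (Hsp90b1, Calr and Pdia6), and of the degradation genes Syvn1 and Herpud1, whose levels lay higher in KO. They are written on the strand of the gene, with the fixed letters of the element in capitals, so that an element on the opposite strand reads CGTGG and ATTGG.
Hspa5, chr2:34772013-34772055, plus strand: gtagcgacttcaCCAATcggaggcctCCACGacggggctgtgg
Hsp90b1, chr10:86705521-86705563, minus strand: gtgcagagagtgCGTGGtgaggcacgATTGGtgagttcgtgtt
Calr, chr8:84847063-84847105, minus strand: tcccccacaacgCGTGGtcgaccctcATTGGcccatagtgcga
Pdia6, chr12:17266479-17266521, plus strand: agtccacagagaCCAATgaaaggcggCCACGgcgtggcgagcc
Syvn1, chr19:6046520-6046562, plus strand: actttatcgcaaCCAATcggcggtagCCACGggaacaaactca
Herpud1, chr8:94386365-94386399, plus strand: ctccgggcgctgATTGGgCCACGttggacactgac

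**Figure D1:**
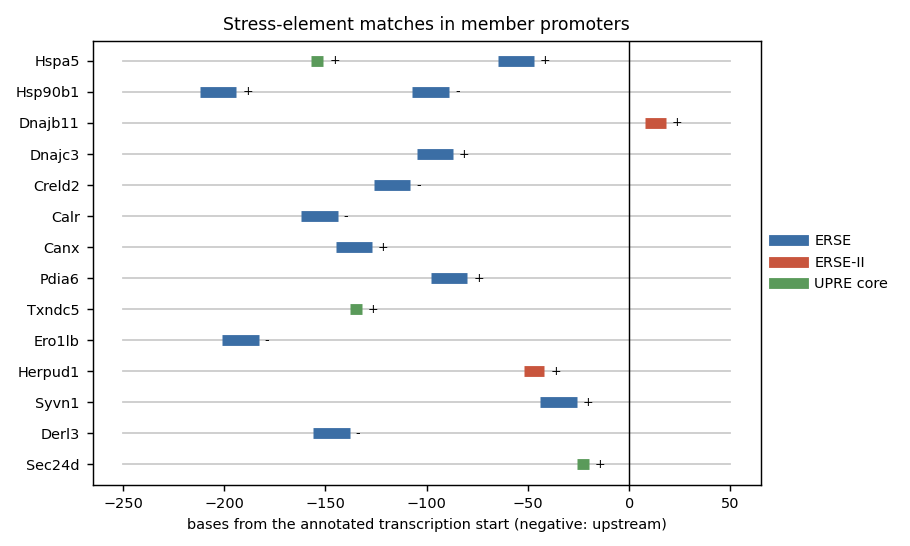
Each line is the promoter window of 1 member with a match, in bases from the annotated transcription start (0, vertical line), and coloured blocks are matches, with the strand of the match beside them. Apart from the ERSE-II match of Dnajb11, which begins 8 bases after the start, every match drawn lies upstream, and Hsp90b1 has 2 ERSE matches.

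The microRNAs of the deleted cluster have seeds (bases 2 to 8) that pair with TGAATGT in a 3' UTR. Only the hairpins of this cluster were looked up, and whether other microRNAs with this seed remained in KO could not be checked. Both mature forms of the cluster are shown because their seed defines the sites counted here, with the seed in capitals.
mmu-miR-181a-5p, chr2:38852741-38852763: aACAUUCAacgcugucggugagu
mmu-miR-181b-5p, chr2:38853845-38853868: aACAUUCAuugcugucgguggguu
Taking for each gene its longest 3' UTR in GENCODE M21, TGAATGT occurred in 9 of the 34 members (26.5%) and in 16.4% of 21045 genes. Median 3' UTR lengths were 1289 bases in the members and 960 bases in all genes, and the shares were not adjusted for length. In 5 members the site is followed by an A, which makes it an 8mer, among them the chaperone genes shown here with the seed match in capitals.
Hsp90b1, chr10:86690906-86690928, minus strand: attcctccTGAATGTaaatttgt
Hyou1, chr9:44391903-44391925, plus strand: ccatggagTGAATGTaaaaatgc
Dnajc3, chr14:118979459-118979481, plus strand: aggaagcaTGAATGTagcagcca
Of the 9 members with a site, 0 had a higher level in KO in the main edgeR fit, where 8625 of 17920 tested genes did. The median log2 fold change was -0.22 in these 9 members. It was -0.19 in the 25 members without a site, 5 of which were higher in KO. Directions of genes with a site outside the members were not counted, and the part of the sites was not tested. The member counts depended on the setting. Atf6, which has a site, moved from -0.010 to 0.013 with library size alone. Without flox 2, Txndc5, which has a site, was at 0.044. Without a site, Dnajb11 (0.019), Derl3 (0.16) and Sec61b (0.0088) also turned positive there.

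Levels were high for the main chaperones. On a scale of CPM per kilobase of annotated exon, averaged over the 7 libraries, calreticulin (Calr) led at 252, followed by the disulfide isomerase P4hb at 152. The ER form of HSP90, Hsp90b1, stood at 127, the glycoprotein isomerase Pdia3 at 121, BiP (Hspa5) at 116 and calnexin (Canx) at 90.5. The lowest were the degradation component Derl3 at 1.34, the coat protein Sec24d at 3.94 and the HSP70-like Hspa13 at 4.23. Summed, the 34 members took 5449, 6876 and 5180 CPM in flox 1, 2 and 3 and 5162, 5067, 4455 and 5139 CPM in KO 1 to 4. Flox 2 was the highest library and KO 3 the lowest, and flox 1 and flox 3 lay above all 4 KO libraries. In bulk RNA, fewer cells of a type and less RNA per cell cannot be told apart.

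Most members were slightly lower in KO, and 0 of 34 passed the test. The log2 fold change was below 0 in 29 of 34 members, against 51.9% of all tested genes, and the count was 28 with DESeq2 size factors or library size alone, where Atf6 turned positive. The median was -0.19, against -0.0080 for all tested genes. The lowest edgeR adjusted p of a member was 0.239, while 0.145% of all genes passed the adjusted threshold of 0.05. DESeq2 called 0 members and 2.21% of the genes for which it gave an adjusted p. At an unadjusted edgeR p under 0.05, 11 members were lower (background 8.17%) and 2 were higher (background 5.89%). The 11 became 5 with library size alone (background 6.61%) and 20 without flox 3 (background 8.75%). Every KO library lay below every flox library for 7 members, where 7.41% of all genes do so, and above for 2, where 6.22% do so.

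**Figure D2:**
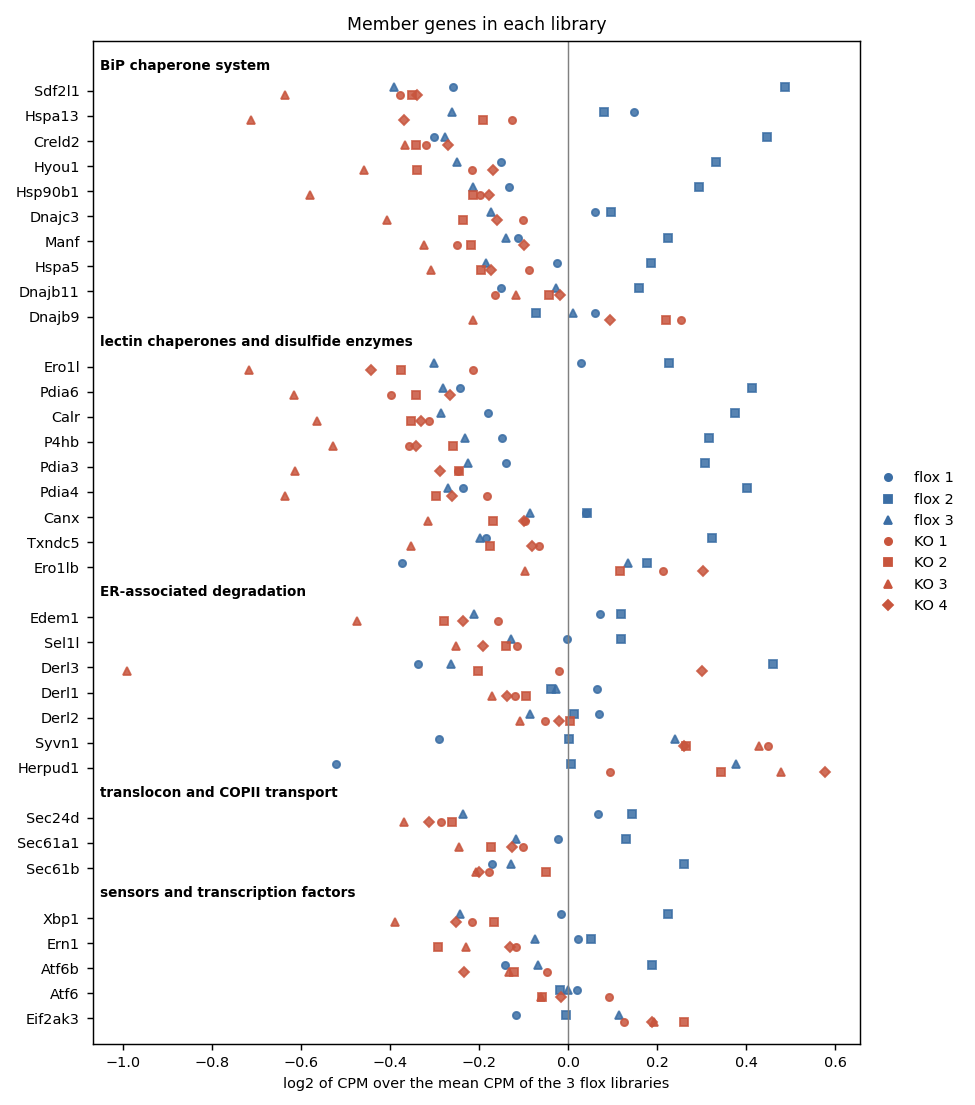
Each row is 1 member, and each point is the log2 of 1 library's CPM over the mean CPM of the 3 flox libraries (blue flox, red KO, symbol shape by replicate number). Flox 2 (blue squares) lies to the right of the other libraries in 25 of 34 rows and KO 3 (red triangles) to the left in 27.

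Flox 2 and KO 3 set the ends of most members' ranges. Flox 2 was the highest library for 25 of 34 members, whereas it was highest for 22.0% of all tested genes. KO 3 was the lowest library for 27 members, and for 16.8% of all genes. In the BiP system flox 2 was highest for 8 of 10 genes and KO 3 lowest for 9, and among lectin chaperones and disulfide enzymes each held for 8 of 9. On log2 CPM, flox 2 exceeded the mean of flox 1 and flox 3 by a median of 0.29. This gap was larger in size than the KO to flox difference for 22 of 34 members. Both values were computed for the members alone, so no share over all genes stands beside them. A gap resting on 1 library also varies more than a difference of group means. Without flox 2 the members' median was -0.076, with 25 of 34 below 0 (48.9% of all genes), 0 lower at an unadjusted edgeR p under 0.05 (background 5.88%) and 2 higher, Syvn1 and Eif2ak3 (background 5.08%). Without both flox 2 and KO 3, a choice made after seeing these values, the median was -0.022, with 22 of 34 below 0 (49.3% of all genes), 0 lower (background 5.34%) and 0 higher (background 4.4%) at that level, and 0 members passed the adjusted threshold. Without KO 3 alone, 27 were below 0 (49.8% of all genes), with 2 lower (background 5.53%) and 3 higher (background 5.11%) at that level, and a median of -0.14.

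Markers of some cell types moved with these libraries. Of 10 listed genes of promyelocytes and primary granules 9 were matched and tested, among them Nkg7, which was also listed as a T and NK cell marker. The 9 summed to 4470, 6773 and 3883 CPM in flox and 3237, 3962, 2845 and 3356 CPM in KO. Flox 2 was again highest and KO 3 lowest, as they were for 8 of the 9 genes taken singly. The most abundant of them, Mpo (the granule peroxidase) and Elane (the neutrophil elastase), had 3515 and 1116 CPM in flox 2 and 1485 and 499 CPM in KO 3. Plasma cell markers (13 of 13 tested) summed to 3434, 4431 and 2734 CPM in flox and 3670, 3271, 2614 and 3887 CPM in KO, with flox 2 highest and KO 3 lowest. That sum is mostly the immunoglobulin genes Ighm, Igkc and Igha, and of the 13 genes taken singly only Igkc had flox 2 highest and KO 3 lowest. Flox 2 was highest for 3 of the 13 and KO 3 lowest for 4, and 5 of 13 had log2 fold changes below 0 (51.9% of all tested genes). Erythroid markers ran the other way, lowest in flox 2 at 34077 CPM and highest in KO 3 at 71947 CPM, with flox 2 lowest for 10 of 10 genes and KO 3 highest for 8. B lineage markers (12 of 12 tested) did not follow this order, at 80.0, 503 and 802 CPM in flox and 1091, 853, 1032 and 917 CPM in KO. Secondary granule markers of neutrophils were below 0 in 8 of 8, megakaryocyte markers in 10 of 10 and stromal markers in 10 of 10 (51.9% of all tested genes), with 0 past the adjusted threshold. KO 3 was lowest for 6 of 10 megakaryocyte genes and flox 2 highest for 0. Monocyte and macrophage markers were below 0 in 9 of 10, and their sum was lowest in KO 3 (1660 CPM) and highest in flox 1 (2334 CPM). Singly, 4 of these 10 had flox 2 highest and KO 3 lowest, and 4 had flox 2 lowest. Flox 2 was highest for 8 of 8 secondary granule and 7 of 8 mature neutrophil genes, but KO 3 was lowest for 0 in either list. Eosinophil, basophil and mast cell markers summed to 777 CPM in KO 3 and 1434 to 1967 CPM in the other libraries. KO 3 was lowest for 7 of these 8 genes and flox 2 highest for 2. Of other tissues, 10 intestinal epithelial markers summed to 39.0 to 41.4 CPM in flox and 92.2 to 100.1 CPM in KO, all 10 past the edgeR threshold, and of 8 pancreatic acinar markers only Cela1 passed the filter. The part of these cell types in the members' differences was not tested.

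**Figure D3:**
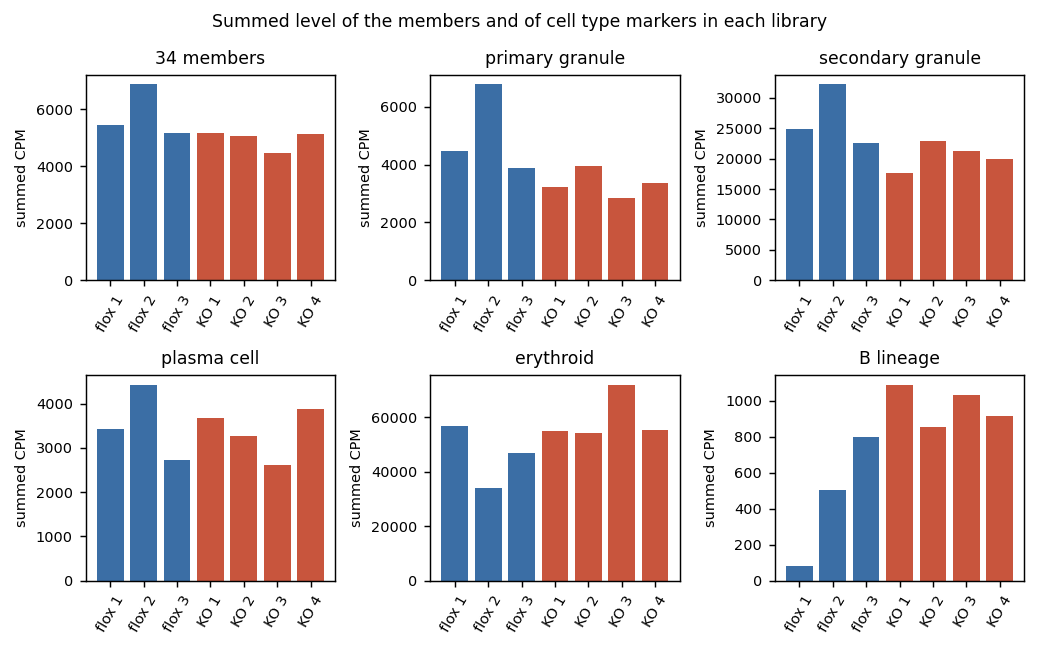
Bars give the summed CPM of the 34 members and of marker lists in each library (blue flox, red KO). The sums of members, of the promyelocyte and primary granule list and of plasma cell genes are highest in flox 2 and lowest in KO 3. Singly this held for 8 of 9 genes of the promyelocyte and primary granule list but 1 of 13 plasma cell genes. The erythroid sum is lowest in flox 2 and highest in KO 3.

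The BiP system holds BiP itself, its HSP40 co-chaperones and its exchange and helper factors. Dnajc3, a co-chaperone that also inhibits PERK, had 135, 138 and 114 CPM in flox and 120, 110, 97.3 and 116 CPM in KO. The groups overlapped, and KO lay at -0.22 against flox on the log2 scale (SE 0.094, edgeR adjusted p = 0.334). Manf, a secreted ER stress factor, had 76.9, 97.0 and 75.4 CPM in flox and 69.9, 71.4, 66.4 and 77.6 CPM in KO (-0.22, SE 0.099, adjusted p = 0.358). The Manf groups overlapped through KO 4, and Manf shares 146 exon bases with Dcaf1 on the opposite strand, whose own value was 0.13 (SE 0.11). Hspa13, a stress protein with an HSP70 ATPase domain, had 36.4, 34.7 and 27.4 CPM in flox and 30.1, 28.7, 19.99 and 25.4 CPM in KO (-0.33, SE 0.15, adjusted p = 0.361). Hyou1, the large HSP70 that releases ADP from BiP, had 131, 183 and 122 CPM in flox and 125, 115, 106 and 129 CPM in KO (-0.29, SE 0.14, adjusted p = 0.381). For Hspa13 and Hyou1 the lowest flox library, flox 3, lay inside the KO range.

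BiP (Hspa5, ENSMUSG00000026864) ran from 463 to 599 CPM in flox and from 426 to 496 CPM in KO, with a log2 fold change of -0.19 and a 95% interval of -0.41 to 0.029. Hsp90b1 ran from 492 to 699 and from 381 to 504 CPM (-0.28, interval -0.60 to 0.033). Sdf2l1, a partner of the HSP40 Dnajb11, had the largest difference of this set, at -0.42 (interval -0.89 to 0.050), and its flox 2 level of 73.2 CPM compared with 43.6 and 39.8 in flox 1 and 3 and 33.6 to 41.3 in KO. Creld2, a stress-induced factor with isomerase activity, gave -0.32, but its KO libraries (25.7 to 27.5 CPM) lay beside flox 1 and 3 (26.9 and 27.3) and only flox 2 (45.1) stood apart. Without flox 2 its value was -0.019. Dnajb11 gave -0.085, and Dnajb9, an HSP40 known as an XBP1 target that represses IRE1, was the 1 gene of the 10 above 0, at 0.10 (interval -0.16 to 0.36).

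Lectin chaperones and disulfide enzymes had a median of -0.34, the lowest of the role groups, with 8 of 9 below 0 (51.9% of all genes) and 5 lower at an unadjusted edgeR p under 0.05 (background 8.17%). Calr, which binds newly made glycoproteins and calcium (ENSMUSG00000003814, GRCm38), had 741, 1089 and 689 CPM in flox and 676, 657, 568 and 667 CPM in KO. Every KO library was below every flox library, at -0.39 on the log2 scale (SE 0.15, edgeR adjusted p = 0.308), and without flox 2 the value was -0.14 (SE 0.092). P4hb, the founding disulfide isomerase, had 450, 621 and 425 CPM in flox and 389, 417, 346 and 393 CPM in KO (-0.37, SE 0.13, adjusted p = 0.274). Pdia3, the isomerase that works with calnexin and calreticulin, had 393, 535 and 370 CPM in flox and 364, 365, 283 and 355 CPM in KO (-0.34, SE 0.14, adjusted p = 0.326). The P4hb and Pdia3 groups did not overlap either. An exact two-sided permutation test gave p = 0.0286 for Calr, P4hb and Pdia3, with an adjusted p of 0.313 over all tested genes. The value 0.0286 is the smallest p that 3 against 4 libraries can give, and it largely restates that the groups do not overlap. For Canx, whose groups did not overlap either, the same permutation test gave p = 0.0571.

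Ero1l, the oxidase that recharges disulfide isomerases, had the lowest fold change of all members. Its levels were 99.1, 114 and 78.8 CPM in flox and 83.7, 74.8, 59.1 and 71.5 CPM in KO (-0.43, SE 0.14, edgeR adjusted p = 0.262), and KO 1 lay above flox 3. Its paralogue Ero1lb went the other way at 0.14 (95% interval -0.18 to 0.46), with 24.5 CPM in flox 1 and 29.7 to 39.2 CPM in the other libraries, and without flox 1 its value was -0.018. Canx, the membrane-bound relative of calreticulin, gave -0.17 with groups that did not overlap (427 to 467 CPM in flox and 364 to 424 CPM in KO). The disulfide isomerases Pdia6 and Pdia4 gave -0.40 and -0.33 and Txndc5, an isomerase abundant in plasma cells, -0.17, and in all of these flox 2 was the highest library.

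**Figure D4:**
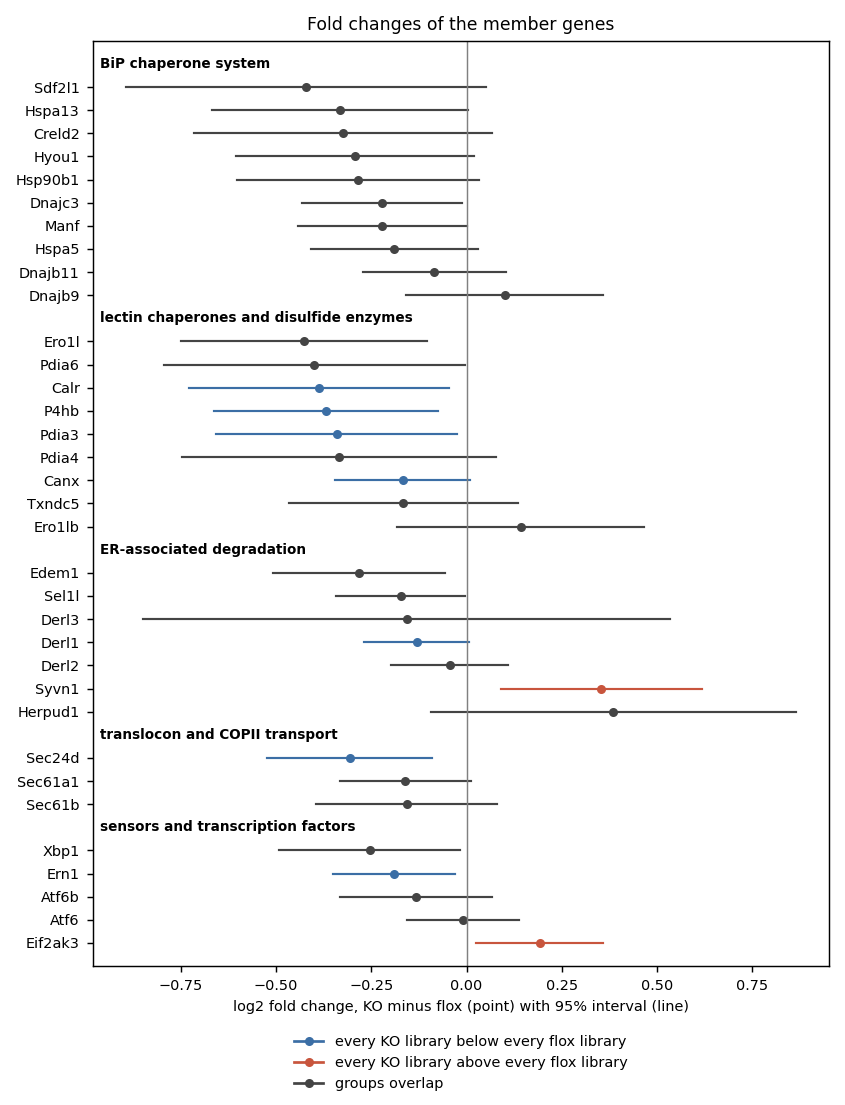
Points are log2 fold changes, KO minus flox, with 95% intervals from the edgeR fit, by role. Blue marks members whose KO libraries all lie below flox (7), red those whose KO libraries all lie above (2), and black the others.

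Genes of ER-associated degradation lay on both sides of 0. Syvn1, the ubiquitin ligase HRD1 (ENSMUSG00000024807), had 54.1, 66.2 and 78.0 CPM in flox and 90.2, 79.4, 89.0 and 79.1 CPM in KO. All KO libraries were above all flox libraries, though KO 4 at 79.1 and flox 3 at 78.0 CPM nearly met, and the difference was 0.35 on the log2 scale (SE 0.12, edgeR adjusted p = 0.256). Without flox 2 it was 0.37 (SE 0.15), and without both flox 2 and KO 3 it was 0.35 (SE 0.17). The lowest Syvn1 level was in flox 1, which both of these settings keep. Syvn1 shares 91 exon bases with Mrpl49 on the opposite strand, which gave 0.24 (SE 0.097, adjusted p = 0.319), and without a known strand setting the reads of that stretch cannot be told apart.

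Sel1l, the partner that holds HRD1 in the membrane, lay on the other side of 0. Its levels were 119, 129 and 109 CPM in flox and 110, 108, 99.7 and 104 CPM in KO (-0.17, SE 0.076, edgeR adjusted p = 0.346). Edem1, which marks misfolded glycoproteins for removal, had 218, 226 and 179 CPM in flox and 186, 171, 150 and 176 CPM in KO (-0.28, SE 0.10, adjusted p = 0.274). Derl1, a channel component, had 148, 138 and 139 CPM in flox and 131, 133, 126 and 129 CPM in KO, without overlap (-0.13, SE 0.062, adjusted p = 0.374). Sel1l and Edem1 overlapped through flox 3. Herpud1, a stress-induced organiser of the same complex, gave 0.38 with an SE of 0.21, which among the members only Derl3 exceeded. It ran from 77.6 to 145 CPM in flox and from 119 to 166 CPM in KO (95% interval -0.095 to 0.86). The lowest Herpud1 level was in flox 1 and not in the libraries at the ends of the chaperone range. The channel relative Derl2 gave -0.044, and it shares 231 exon bases with Mis12 on the opposite strand, which had 1975 to 2524 counts per library and gave 0.13 (SE 0.081). Derl3, of the same family, gave -0.16 at 1.43 to 3.91 CPM across libraries.

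The translocon and transport genes were all below 0. Sec24d, a cargo adaptor of the COPII coat, (ENSMUSG00000039234) had the lowest p of all members, with 29.3, 30.9 and 23.8 CPM in flox and 23.0, 23.4, 21.7 and 22.6 CPM in KO (-0.31, SE 0.097, edgeR adjusted p = 0.239). The Sec24d groups did not overlap, although flox 3 lay beside KO 2, and without flox 2 the value was -0.21 (SE 0.097). Sec61a1, the pore of the translocon, had 156, 174 and 146 CPM in flox and 148, 141, 134 and 145 CPM in KO (-0.16, SE 0.077, adjusted p = 0.38). Sec61b, a small subunit of the same channel, had 62.1, 83.6 and 63.9 CPM in flox and 61.8, 67.5, 60.5 and 60.8 CPM in KO (-0.16, SE 0.11, adjusted p = 0.556). For both subunits the KO range crossed the flox range.

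The sensors and their transcription factors lay on both sides of 0. Ern1, which encodes IRE1, had 55.1, 56.2 and 51.6 CPM in flox and 50.03, 44.3, 46.3 and 49.6 CPM in KO, without overlap (-0.19, SE 0.072, edgeR adjusted p = 0.288). Xbp1, whose messenger IRE1 splices, had 127, 150 and 109 CPM in flox and 111, 115, 98.3 and 108 CPM in KO (-0.25, SE 0.11, adjusted p = 0.328). Xbp1 overlapped through flox 3, and counts per gene do not separate its spliced from its unspliced form.

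Eif2ak3, which encodes PERK (ENSMUSG00000031668), was higher in every KO library than in every flox library. It had 53.2, 57.5 and 62.4 CPM in flox and 62.9, 69.1, 65.9 and 65.7 CPM in KO (0.19, SE 0.075, edgeR adjusted p = 0.3). The value was 0.20 without flox 2 and 0.21 without both flox 2 and KO 3. The lowest library was flox 1, as for Syvn1. Without flox 1, 1 member and not 2 was higher at an unadjusted edgeR p under 0.05 (1097 of 18296 genes). Atf6b, a relative of ATF6, had 68.3, 85.8 and 71.9 CPM in flox and 72.8, 69.3, 68.7 and 64.1 CPM in KO (-0.13, SE 0.089, adjusted p = 0.557). Atf6 had the difference closest to 0, at -0.010 (95% interval -0.16 to 0.14), with 78.8 to 80.9 CPM in flox and 76.5 to 85.1 CPM in KO.

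Other genes of the secretory pathway also lay mostly below 0, with a smaller median. Of 116 tested ER genes outside the members, 90 were below 0, against 51.9% of all tested genes, with a median of -0.084. At an unadjusted edgeR p under 0.05, 22 were lower (background 8.17%) and 1 was higher (background 5.89%), and 0 passed the adjusted threshold. Flox 2 was the highest library for 67 of the 116 genes (22.0% of all tested genes) and KO 3 the lowest for 42 (16.8% of all tested genes). The counts for these genes were not repeated without flox 2. Genes of N-glycosylation and glucose trimming were below 0 in 16 of 18 (median -0.18), with Rpn1, a subunit of the oligosaccharyltransferase, at -0.26 and Magt1 at -0.28. Other folding enzymes were below 0 in 19 of 21 (median -0.13), with the isomerase Pdia5 at -0.48 and the plasma cell prolyl isomerase Fkbp11 at -0.83, at means of 8.39 and 3.21 CPM in flox. ER to Golgi carriers were below 0 in 19 of 20 (median -0.083), with the cargo receptor Surf4 at -0.24 and the KDEL receptor Kdelr2 at -0.21. Signal peptide and translocon genes were below 0 in 13 of 15 (median -0.073), with Ssr2 at -0.25 and the signal peptidase subunit Spcs3 at -0.26. Other degradation genes were below 0 in 13 of 18 (median -0.043), with Edem2 at -0.26 and the extraction ATPase Vcp at -0.15.

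Of 16 genes downstream of PERK and in the integrated stress response, 7 were below 0, against 51.9% of all tested genes. Their median was 0.099, against -0.0080 for all tested genes and inside the quartiles of all tested genes (-0.147 to 0.135). Asns, the asparagine synthetase, had the lowest p of them at -0.36 (SE 0.069, edgeR adjusted p = 0.111), and Eif2ak4, the amino acid sensor kinase, gave 0.17. The effector transcription factors Atf4 (0.11, SE 0.072) and Ddit3 (0.094, SE 0.12), named after their values were seen, had groups that overlapped. Of 8 other ER stress transcription factors and proteases 3 were below 0 (51.9% of all tested genes), with a median of 0.11. Creb3l1 gave -0.52 and Bhlha15, a regulator of secretory cells, 0.53, at means of 3.66 and 1.498 CPM in flox.

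**Figure D5:**
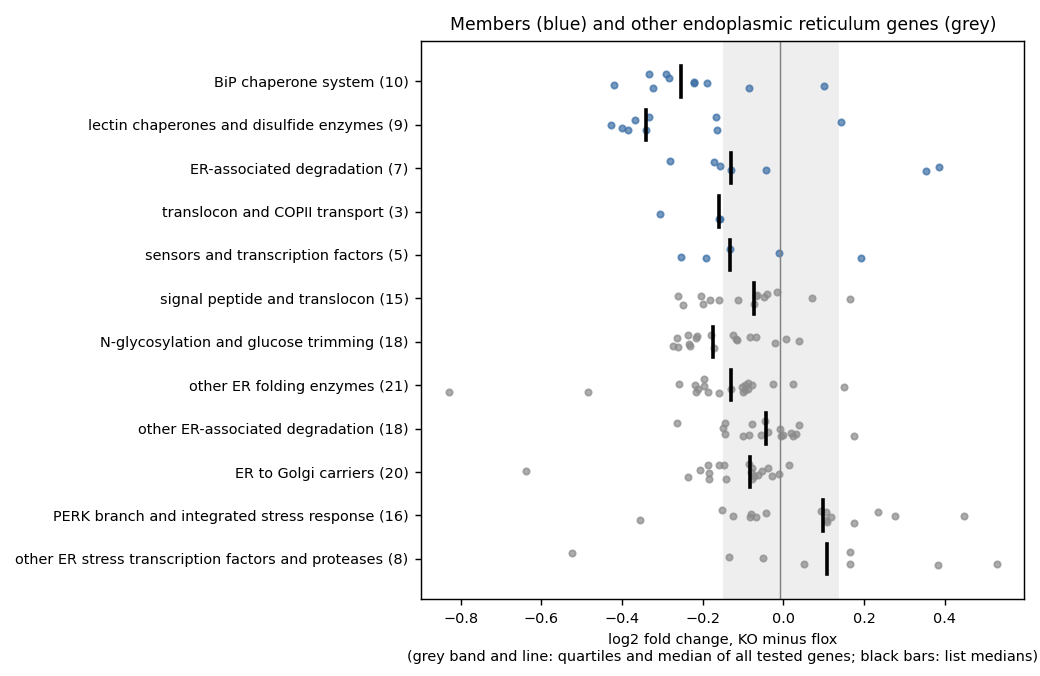
Points are log2 fold changes, KO minus flox, of the members by role (blue) and of other ER genes by list (grey), with black bars at list medians and a grey band over the quartiles of all tested genes. Chaperone and disulfide enzyme medians lie at -0.25 and -0.34, and the PERK branch median lies at 0.099, inside the grey band.

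Members with and without the promoter element had nearby medians. The 12 members with an ERSE or ERSE-II match had a median log2 fold change of -0.18, with 9 below 0, and ranged from Pdia6 at -0.40 to Herpud1 at 0.38. The 16 members with a promoter window and neither element had a median of -0.22, with 14 below 0. Of 37 other genes with either element 15 were tested, with a median of -0.10 and 10 below 0. The sequences printed above for Calr and Syvn1 both hold a full ERSE. Calr lay lower in KO and Syvn1 higher, each by a narrow gap between the groups. For Calr, KO 1 had 676 and flox 3 had 689 CPM, and for Syvn1, KO 4 had 79.1 and flox 3 had 78.0 CPM. Neither passed the threshold (edgeR adjusted p = 0.308 and 0.256). The part of the element in the members' differences was not tested.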

How the data were processed

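The submitters' processing notes name Trimmomatic 0.36, STAR 2.5.2b, Subread 1.5.2 (featureCounts) and the GRCm38 build, with no order or settings. The deposited values are raw counts per Ensembl gene. Not given in the sources used here are the strand setting, the gene annotation release and how multi-mapped reads were handled, which decide how reads of overlapping genes are split. Columns were matched to samples by the library codes in the labels, with 0 columns left unmapped, and groups follow the genotype label.

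Analyses used R 4.3.3, edgeR 4.0.16, limma 3.58.1 and DESeq2 1.42.0. Genes passing filterByExpr (minimum count 10) were normalized with TMM, fitted with robust glmQLFit and tested with glmQLFTest, KO against flox, two-sided, with Benjamini-Hochberg adjustment over all 17920 genes. CPM was computed on TMM-scaled library sizes, with a prior count of 2 where a log2 was taken. SEs are those implied by the F statistic. Gene names and exon lengths came from GENCODE M21, which matched 49056 of 49315 IDs. The members and lists were chosen with earlier results of these data known. Per-library values are given for the 4 members of lowest p in each role group, and up to 2 genes of lowest p are named per wider list. Other members are given by range or fold change.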

Additional observations from a re-analysis of the deposited data

Results flagged for a closer look

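For 3 of 34 members, KO 3 lay far below the other KO libraries by Dixon's criterion for 4 samples. Hsp90b1 stood at 381 CPM in KO 3 against 491 to 504 in KO 1, 2 and 4, Pdia3 at 283 against 355 to 365, and Sdf2l1 at 33.6 against 40.2 to 41.3. Chance flags about 1 in 20 groups, and members that vary together are not independent. The criterion was applied to the members alone, so there is no share over all tested genes to set beside this count. The primary granule sum was also lowest and the erythroid sum highest in KO 3, and their part in these values was not tested.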

How the results depend on the processing

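The count of genes past the adjusted threshold, 26, was 365 with DESeq2, 13 with limma-voom, 112 with no filter on low counts, 16 with non-robust dispersion and 1 without both flox 2 and KO 3, and it ran from 2 to 14 when 1 library was left out. In all of these settings 0 members passed. With 1 library left out, 25 to 30 of 34 members were below 0 with a median of -0.27 to -0.076, the value nearest 0 being that without flox 2. Without both flox 2 and KO 3 the median was -0.022, with 22 of 34 below 0, and Dnajb11 (0.034), Pdia4 (0.029), Txndc5 (0.11), Derl2 (0.0051), Derl3 (0.36), Sec61b (0.030) and Atf6 (0.019) turned positive. Atf6 was also positive with DESeq2 size factors or DESeq2 (0.0047 in each), library size alone (0.013), at least 50 counts in 3 libraries (0.0062) and without haemoglobin and mitochondrial genes (0.0071). Leaving out 1 library turned the direction of Atf6 (-0.045 to 0.021), Derl3 (-0.35 to 0.16), Dnajb11 (-0.16 to 0.019), Ero1lb (-0.018 to 0.25), Sec61b (-0.24 to 0.0088) and Txndc5 (-0.26 to 0.044). The causes were not tested.

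With the replicate number as a block, which leaves out KO 4, 4 genes and 0 members passed, with a member median of -0.23. Same-numbered libraries did not deviate together (correlations of -0.02, 0.08 and 0.02 across genes), so the numbers were not treated as pairs. Flox 2 and flox 3 correlated best with the KO library of their own number, and flox 1 with KO 3. Small differences between 3 and 4 libraries are limited by their spread and not by depth, since every member but Derl3 had at least 789 counts in each library.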
